A study of Mus musculus with 2 samples.

Results

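The seed family of miR-25, miR-92a, miR-92b, miR-363 and miR-32 was examined in small RNA libraries of J1 mouse embryonic stem cells (ESCs), an established line. Its members were the 6 miRNA genes Mir25, Mir92-1, Mir92-2, Mir92b, Mir363 and Mir32. A sequence tag was counted as a member when it matched one of their hairpins perfectly over its whole length, and tags lying on both miR-92a hairpins were counted once. By this rule 218 distinct tags were members, among 8598 tags on all 1174 named miRNA hairpins and 1695245 distinct tags in all. They held 182934 reads in the control and 151202 reads in the treated cells, equal to 8.39% and 7.16% of the reads on miRNA hairpins.

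Both groups of cells grew without feeders on gelatin in Knockout DMEM with Knockout Serum Replacement and 1000 U/mL LIF, the cytokine that keeps mouse ESCs undifferentiated. The PD group (labelled PD03) received PD0325901, an inhibitor of the kinase MEK, at 1 μM for 24 h, and the control group (labelled DMSO) received the solvent for the same time. The study asked which miRNAs respond when MEK/ERK signalling is blocked. RNA from independent experiments was pooled per treatment, so each group is 1 library, there is no replicate, no p-value can be given, and every interval below covers counting error only.

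miRNAs pair with target mRNAs mainly through bases 2 to 8, the seed, and miRNAs with the same seed are grouped as a family because they can bind overlapping sets of targets. Each hairpin yields a 5p and a 3p arm, which are cut from it by Drosha and Dicer. Mir25, Mir92-1, Mir92-2 and Mir363 lie in polycistronic clusters transcribed with miR-17 and miR-106 relatives, while Mir92b and Mir32 lie outside these clusters. The miR-17-92 cluster is known for promoting proliferation, and it is active in ESCs.

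The 5 arms that define the family are shown with the seed in capitals, 5′ to 3′, to show how far they are alike beyond it. The sequences are from RefSeq (GRCm38.p6), and miR-367-3p is added as the only other mature miRNA among the hairpins with this seed.
miR-25-3p: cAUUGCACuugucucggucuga
miR-92a-3p: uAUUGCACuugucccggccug
miR-92b-3p: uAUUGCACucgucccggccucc
miR-363-3p: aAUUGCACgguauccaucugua
miR-32-5p: uAUUGCACauuacuaaguugca
miR-367-3p: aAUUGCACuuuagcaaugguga

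In all, 6 mature miRNAs carried the seed AUUGCAC, of which 5 were members. With positions counted from 1 at the 5′ end, miR-92a-3p and miR-92b-3p were identical at 19 of 21 bases and differed by U10C and G21C. miR-25-3p and miR-92a-3p were identical at 18 of 21 bases and differed by C1U, U14C and U18C. miR-32-5p shared 13 of 22 bases with miR-25-3p, and miR-363-3p shared 9 of 22. Beyond base 8, 6 of 14 bases of miR-32-5p and 2 of 14 bases of miR-363-3p matched miR-25-3p. After the seed, G and C made up 11 of 14 bases of miR-92b-3p, 9 of 13 of miR-92a-3p, 7 of 14 of miR-25-3p, 6 of 14 of miR-363-3p and 4 of 14 of miR-32-5p.

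The 4 hairpins on which later results turn follow, with both arms in capitals. The 3p arm of the pair of miR-92a genes is the same, and the bases after it are not.
Mir92-1: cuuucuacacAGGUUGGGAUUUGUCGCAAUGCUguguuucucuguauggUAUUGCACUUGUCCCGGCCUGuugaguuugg
Mir92-2: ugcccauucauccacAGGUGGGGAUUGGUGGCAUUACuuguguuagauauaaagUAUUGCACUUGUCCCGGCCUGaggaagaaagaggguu
Mir363: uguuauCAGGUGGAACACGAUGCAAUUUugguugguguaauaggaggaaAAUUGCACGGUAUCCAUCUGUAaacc
Mir32: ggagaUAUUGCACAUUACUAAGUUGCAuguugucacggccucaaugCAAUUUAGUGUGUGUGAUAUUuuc

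In the GENCODE M21 annotation of GRCm38, Mir25 lay at chr5:138165321-138165404 on the minus strand, within Mcm7 and over an exon of a retained-intron transcript of it. Mcm7 encodes a subunit of the replicative helicase. Mir92-1 lay at chr14:115044427-115044506 on the plus strand, in an exon of Mir17hg, the host transcript of the miR-17-92 cluster. Mir92-2 at chrX:52741838-52741928 and Mir363 at chrX:52741693-52741767, both on the minus strand, are neighbours in the miR-106a-363 cluster and overlapped no other annotated gene. Mir92b at chr3:89227116-89227198 on the minus strand also overlapped none. Mir32 lay at chr4:56895229-56895298 on the minus strand, in an intron of Tmem245.

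The libraries held 18870345 clean reads (control) and 20944808 clean reads (PD). Levels are given as reads per 1000000 clean reads (RPM), on which 3 reads, the limit that a count of 0 allows, correspond to 0.159 RPM in the control and 0.143 RPM in PD. miR-294-3p, a miRNA characteristic of mouse ESCs and hence a marker of the labelled cells, was at 2896 RPM in the control and 2339 RPM in PD. A miRNA was taken as detected at 1 RPM or more in either library, and as changed when its level differed by 1.5-fold, the threshold of the study. Of 495 detected miRNAs, 98 (19.8%) were past 1.5-fold, 70 (14.1%) of them lower and 28 (5.66%) higher in PD, and 335 (67.7%) lay below their control level with a median fold change (PD over control) of 0.887. The balance depended on the scale, with 30 lower and 47 higher per reads on miRNA hairpins and 23 lower and 58 higher per reads of 20 to 24 nt. Reads on miRNA hairpins were 11.6% of the clean reads in the control and 10.1% in PD, and reads of 20 to 24 nt were 63.0% and 52.0%. Both shares moved with the folds below, and their part in them was not tested. In RNA of whole cultures, fewer cells with a miRNA and less of it per cell cannot be told apart.

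The arms with the family seed were lower in sum after PD, and the members did not move alike. The sum was 7376 RPM (139188 reads) in the control and 5170 RPM (108279 reads) in PD, a fold change of 0.701 (95% interval 0.695 to 0.706). The 6 opposite arms together had a fold change of 0.882, close to the median of all detected miRNAs. Of the 10 member arms that were detected, 2 were lower past 1.5-fold and 0 were higher, beside the 14.1% and 5.66% of all detected miRNAs. The median fold change of all 11 member arms was 0.799, and 9 of the 11 were below 1, beside 67.7% of all detected miRNAs. The 11 arms include miR-32-3p, which was not detected by this rule and is among the 9 below 1.

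**Figure D1:**
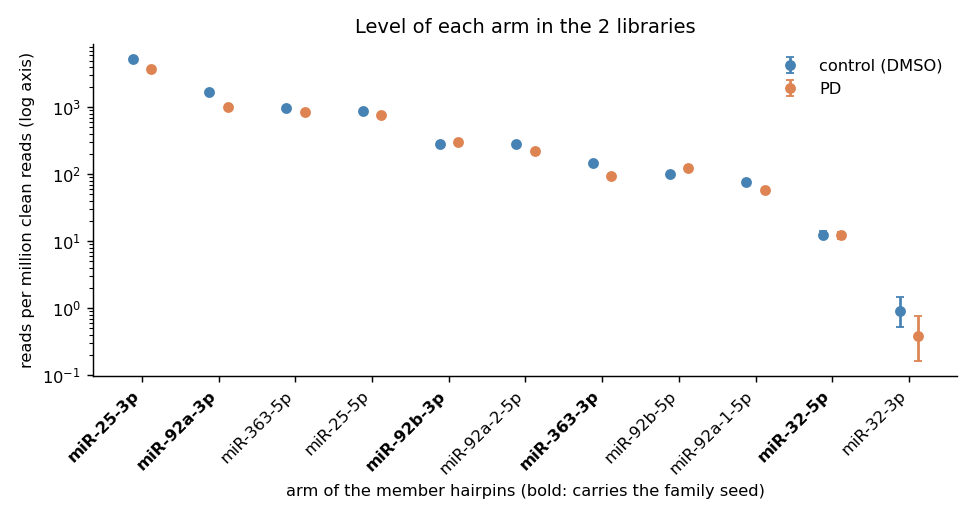
Level of each of the 11 member arms in RPM (log axis) in the control and PD libraries, 1 point per library with its 95% Poisson counting interval. The arms span from 5232 RPM for miR-25-3p to under 1 RPM for miR-32-3p, and miR-92b-3p and miR-92b-5p are the pair that is higher in PD.

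miR-25-3p was the most abundant member and ranked 5th of all detected miRNAs in the control. It had 98738 reads (5232 RPM) in the control and 78245 reads (3736 RPM) in PD, a fold change of 0.714 (0.707 to 0.721), which did not pass 1.5-fold. Its opposite arm miR-25-5p had 880.2 RPM and 781.7 RPM, a fold change of 0.888 (0.869 to 0.908). Over all perfect tags, the arm with the seed was therefore reduced further than the opposite arm of the same hairpin. Among tags identical to the mature miRNA the fold changes were closer, at 0.852 for miR-25-3p and 0.897 for miR-25-5p.

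miR-92a-3p, made from both Mir92-1 and Mir92-2, had the lowest fold change of the detected member arms. It had 31999 reads (1696 RPM) in the control and 21386 reads (1021 RPM) in PD, a fold change of 0.602 (0.592 to 0.613). The opposite arms, which differ between the genes, were less reduced. miR-92a-1-5p had 77.7 RPM and 58.7 RPM, a fold change of 0.756 (0.700 to 0.816), and miR-92a-2-5p had 280.8 RPM and 224.4 RPM, a fold change of 0.799 (0.768 to 0.831).

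miR-363-3p was the other arm past 1.5-fold. It had 2779 reads (147.3 RPM) in the control and 1975 reads (94.3 RPM) in PD, a fold change of 0.640 (0.604 to 0.679). In Mir363 the arm with the seed was the minor one, unlike in Mir25, Mir92b and Mir32. Whether this also held for Mir92-2 cannot be told, because many miR-92a-3p reads match both miR-92a genes. miR-363-5p had 974.3 RPM and 853.2 RPM, a fold change of 0.876 (0.858 to 0.894). Both calls depended on the scale. Per reads on miRNA hairpins the fold change of miR-92a-3p was 0.690 and that of miR-363-3p 0.734, neither past 1.5-fold.

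Both arms of Mir92b lay above their control level. miR-92b-3p had 5435 reads (288.0 RPM) in the control and 6416 reads (306.3 RPM) in PD, a fold change of 1.06 (1.03 to 1.10). miR-92b-5p had 1909 reads (101.2 RPM) and 2611 reads (124.7 RPM), a fold change of 1.23 (1.16 to 1.31). Neither passed 1.5-fold, and both fold changes stayed above 1 under all 11 other settings tried. Some of these settings could not have brought them below 1. The other denominators raised every fold change, and 0 member tags matched a hairpin outside the family, so leaving such tags out changed nothing.

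Mir32 gave the least RNA. miR-32-5p had 237 reads (12.6 RPM) in the control and 257 reads (12.3 RPM) in PD, a fold change of 0.977 (0.816 to 1.17) whose interval holds 1. Its opposite arm miR-32-3p had 17 and 8 reads, under 1 RPM in both libraries, with a fold change of 0.424 (0.158 to 1.04). A change of miR-32-3p was not detectable at this depth. miR-367-3p, which has the seed and lies in the miR-302-367 cluster, had 1 read in the control and 5 reads in PD and contributed next to nothing to the seed's total.

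miR-25-3p held most of the seed's total in both libraries. It held 70.9% of the reads of the 5 seed arms in the control and 72.3% in PD (95% Wilson intervals 70.7 to 71.2% and 72.0 to 72.5%). The share of miR-92a-3p went from 23.0% to 19.8% and that of miR-92b-3p from 3.90% to 5.93%. miR-363-3p held 2.00% and 1.82%, and miR-32-5p 0.170% and 0.237%. The shares depended on the tags counted. Among tags of 21 nt or more miR-25-3p held 78.1% in the control and 77.2% in PD, the opposite direction, and among tags identical to the mature miRNA miR-92a-3p held 5.94% and 4.17%.

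Set against miR-25-3p, a comparison that needs no scaling of the libraries, the members fell on both sides of 1. The ratio of miR-92b-3p to miR-25-3p in PD was 1.49 times that in the control (exact interval 1.43 to 1.55), and that of miR-32-5p was 1.37 times (1.14 to 1.64). The ratio of miR-92a-3p was 0.843 times (0.827 to 0.860) and that of miR-363-3p 0.897 times (0.845 to 0.951). None of these intervals includes 1, but some calls depended on the tags counted. For tags of 21 nt or more miR-92a-3p was at 0.982 (0.957 to 1.01), and with tags bearing added U or A miR-363-3p was at 1.09 (1.05 to 1.14). For tags starting at the mature first base miR-363-3p was at 0.933 (0.864 to 1.01), and for tags identical to the mature miRNA miR-32-5p was at 2.33 (1.34 to 4.17).

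Over all perfect tags, the balance of the arms shifted away from the arm with the seed in 4 of the 5 cases. There were 5.94 reads of miR-25-3p for each read of miR-25-5p in the control and 4.78 in PD. For Mir92b the ratio was 2.85 and 2.46, and for miR-92a-3p over both of its 5p arms it was 4.73 and 3.61. For Mir363 it was 0.151 and 0.111. The change of the ratio was 0.804 (0.785 to 0.823) for Mir25, 0.863 (0.805 to 0.925) for Mir92b, 0.762 (0.733 to 0.793) for the miR-92a genes and 0.731 (0.687 to 0.778) for Mir363. For Mir32 the ratio was 13.9 in the control and 32.1 in PD, and the interval of its change (0.921 to 6.28) includes 1.

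These shifts depended on tag length. Among tags of 21 nt or more the change was 1.02 (0.977 to 1.06) for the miR-92a genes and 0.929 (0.864 to 1.00) for Mir92b, and both intervals include 1. For Mir25 it was 0.934 (0.911 to 0.957) and for Mir363 0.841 (0.786 to 0.899), while for Mir32 it was 3.11 (1.23 to 8.52). Among tags identical to the mature miRNA the intervals of the change for Mir25 (0.875 to 1.03) and Mir92b (0.868 to 1.05) also include 1. The ratios leave out tags with U or A added at the 3′ end. Tags with 1 to 3 added U held 1939 and 2121 reads for miR-363-3p, but 74 and 69 for miR-363-5p. With added U or A counted, the fold changes of these arms were 0.782 and 0.876, closer together than over perfect tags.

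The reduction of the seed arms was steeper in short tags than in long ones. Among the seed arms, reads of 18 to 20 nt made up between 22.5% and 52.1% of an arm in the control, and between 10.5% and 35.6% in PD. In the opposite arms they were at most 3.41% and 3.96%. For miR-25-3p they were 22174 reads in the control and 8291 in PD, a fold change of 0.337 (0.328 to 0.345), while its reads of 21 nt or more had a fold change of 0.823 (0.815 to 0.832).

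The same split was seen in each of the other seed arms. For miR-92a-3p the short reads had a fold change of 0.412 and the long reads 0.808, and for miR-363-3p the values were 0.324 and 0.736. For miR-92b-3p they were 0.861 (0.802 to 0.924) and 1.15 (1.10 to 1.20), on either side of 1. For miR-32-5p they were 0.304 (0.189 to 0.476) and 1.32 (1.07 to 1.63), so that its near-equal totals combined fewer short and more long reads. No seed arm was past 1.5-fold among reads of 21 nt or more.

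**Figure D2:**
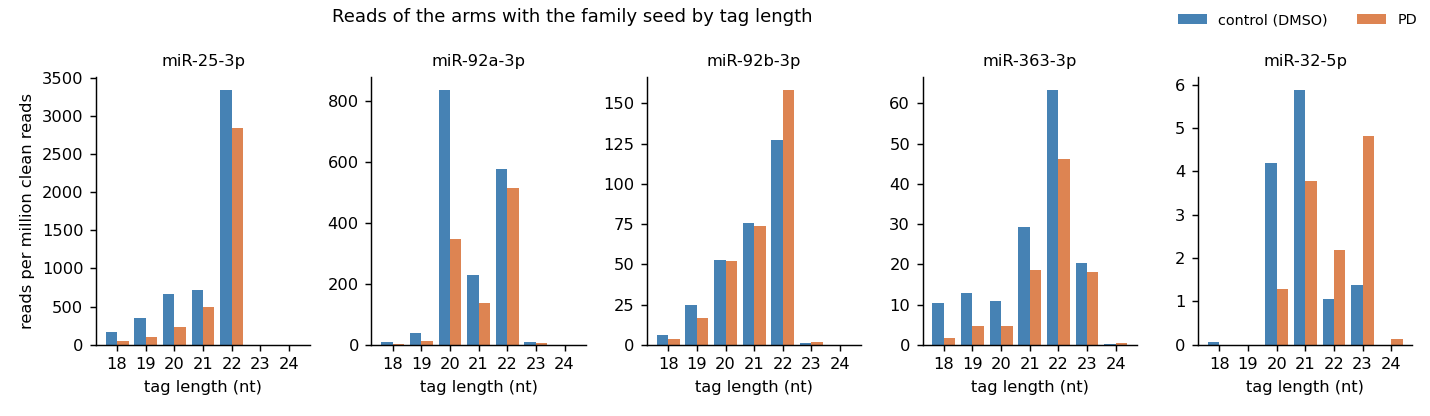
RPM of the 5 seed arms by tag length (nt), with 1 bar per library. The 20 nt bar of miR-92a-3p is its tallest in the control and falls below its 22 nt bar in PD, and the tags of miR-32-5p shift from 20 and 21 nt to 22 and 23 nt.

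The loss of short tags was not particular to these arms. Over 135 other miRNAs with at least 100 reads in each length class, the median fold change was 0.581 (quartiles 0.431 and 0.858) for reads of 18 to 20 nt and 0.939 (0.816 and 1.05) for longer ones, and the ratio of short to long reads changed by a median of 0.637. That ratio changed by 0.409 in miR-25-3p, with 22 of the 135 lower, and by 0.439 in miR-363-3p, with 30 lower. It changed by 0.510 in miR-92a-3p, with 45 lower, and by 0.750 in miR-92b-3p, with 87 lower. In miR-32-5p it changed by 0.230, with 1 of the 135 lower. Reads of 18 to 20 nt were 21.3% of all clean reads in the control and 18.6% in PD, and the part of this shift in the members' values was not tested.

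**Figure D3:**
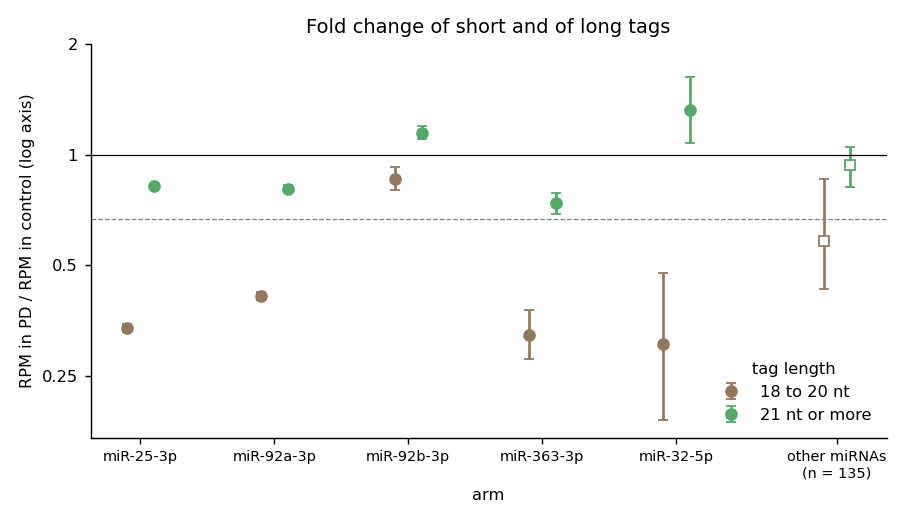
Fold change (PD over control, log axis) of tags of 18 to 20 nt and of 21 nt or more for the 5 seed arms, with 95% counting intervals, beside the median and quartiles of 135 other miRNAs (open squares). The dashed line marks a 1.5-fold reduction. All 5 short-tag values lie below 1, from 0.304 to 0.861, and each lies below the long-tag value of the same arm.

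Single tags show the pattern base by base. The full-length tag of miR-25-3p (22 nt) and the tag lacking its last 2 bases (20 nt) are printed with the seed in capitals.
miR-25-3p, 22 nt: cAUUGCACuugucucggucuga
miR-25-3p, 20 nt: cAUUGCACuugucucggucu
The former had 63032 reads in the control and 59620 in PD, a fold change of 0.852. The latter had 12390 and 4951, a fold change of 0.360. The 21 nt tag lay between them with 13217 and 10100 reads, a fold change of 0.688. Each base missing from the 3′ end went with a lower fold change, down to 0.313 for the 19 nt tag.

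In miR-32-5p the longest abundant tag moved most. The 23 nt tag runs 1 base past the RefSeq mature end into the hairpin, and the 20 nt tag stops 2 bases before it.
miR-32-5p, 23 nt: uAUUGCACauuacuaaguugcau
miR-32-5p, 20 nt: uAUUGCACauuacuaaguug
The 23 nt tag had 26 reads in the control and 101 in PD, a fold change of 3.50 (2.26 to 5.61). The 20 nt tag had 77 and 27 reads, a fold change of 0.316 (0.196 to 0.495). The 21 nt tag, the most frequent in the control, had 111 and 79 reads. These opposite movements are hidden in the arm's fold change of 0.977. An added U would give the same letters as the hairpin's next base, so the origin of the last base of the 23 nt tag cannot be told apart from these reads.

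The pair of miR-92a genes can be separated by tags that reach past base 21. Mir92-1 continues with U and Mir92-2 with A, and the tags that stop earlier match both. These 4 tags carried most of the arm.
Both genes, 20 nt: uAUUGCACuugucccggccu
Both genes, 21 nt: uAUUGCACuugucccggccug
Mir92-1, 22 nt: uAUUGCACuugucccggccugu
Mir92-2, 22 nt: uAUUGCACuugucccggccuga

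The reduction of miR-92a-3p lay mostly in the tags that match both genes. All tags of this kind had 20840 reads in the control and 10387 in PD, a fold change of 0.449 (0.439 to 0.460), and made up 65.1% and 48.6% of the arm's reads. Tags of Mir92-1 only had 8930 and 8854 reads, a fold change of 0.893 (0.867 to 0.920). Tags of Mir92-2 only had 2229 and 2145 reads, a fold change of 0.867 (0.817 to 0.920). The gene-specific tags of both genes were thus nearly alike in fold change. They reach past base 21, so the split by gene is also a split by length. For reads of 21 nt or more the median fold change of 135 other miRNAs was 0.939. The 20 nt tag alone went from 15730 to 7253 reads, a fold change of 0.415, so that the most frequent miR-92a-3p tag was 20 nt long in the control and 22 nt long in PD.

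The order of the genes was opposite between the gene-specific 3p tags and the 5p arms. The 3p comparison leaves out the tags that match both genes, 65.1% of the arm's reads in the control and 48.6% in PD. Among the gene-specific 3p tags, Mir92-1 had 4.01 reads for each read of Mir92-2 in the control (3.82 to 4.20) and 4.13 in PD (3.94 to 4.33). In the 5p arm, Mir92-2 had 3.61 reads for each read of Mir92-1 in the control (3.41 to 3.83) and 3.82 in PD (3.59 to 4.07). Neither order changed with the treatment. A base added to the 21 nt tag without a template would look like a gene-specific tag. At the same position, the bases that neither gene has were read rarely, with 4 reads of C and 0 of G in the control and 3 and 1 in PD, against 8675 and 8639 reads of U. Counts of C and G do not bound added U or A, and how many of the reads of U or A were added was not tested. In miR-363-3p, U without a template followed the full-length tag in 848 reads in the control, beside 1 read of C and 4 of G. In miR-25-3p, where neither base is templated after the 22nd, U followed the full-length tag in 284 reads and A in 456 reads in the control.

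The first base of a tag sets which bases form the seed, and it was well kept in most members. In the control, 99.5% of the reads of miR-25-3p, 98.7% of miR-92a-3p and 99.3% of miR-92b-3p began at the RefSeq first base, and in PD the shares were 99.6%, 99.1% and 99.4%. miR-363-3p was the exception, with 57.0% of its reads at that base in the control (55.1 to 58.8%) and 59.3% in PD (57.2 to 61.5%). Another 41.9% and 39.4% of its reads began 1 base later and have UUGCACG at bases 2 to 8 in place of the family seed. Among 297 other detected miRNAs with a RefSeq mature sequence and at least 100 reads, the median share was 97.9% in the control, and 33 of them had a lower share than miR-363-3p.

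miR-363-3p was also often found with U added at its 3′ end beyond the hairpin sequence, and tags of this kind were not counted above. The most frequent have the added base in capitals, one from each first base.
miR-363-3p, mature start: aauugcacgguauccaucuguaU
miR-363-3p, 1 base later: auugcacgguauccaucuguaU
The former had 848 reads in the control and 901 in PD, and the latter 596 and 734. Tags with 1 to 3 added U held 1939 and 2121 reads, which is 41.1% and 51.8% of the perfect and U-tailed reads together, while the median of 359 other miRNAs was 1.87% and 2.36%. Of these 359, 8 had a higher share than miR-363-3p in the control and 4 in PD. In RPM the tailed tags had a fold change of 0.986 (0.926 to 1.05), against 0.640 for the perfect ones. The sets differ in length, as the tailed tags printed here are 23 and 22 nt long. The perfect tags include those of 18 to 20 nt, at 0.324. Perfect tags of 22 nt were at 0.729 and those of 23 nt at 0.889 (0.769 to 1.03). The part of length in this contrast, and in the rise of the tailed share, was not tested. Counted with its tailed tags, miR-363-3p had a fold change of 0.782 and was not past 1.5-fold. In the other seed arms at most 7.38% of reads carried such a tail.

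**Figure D4:**
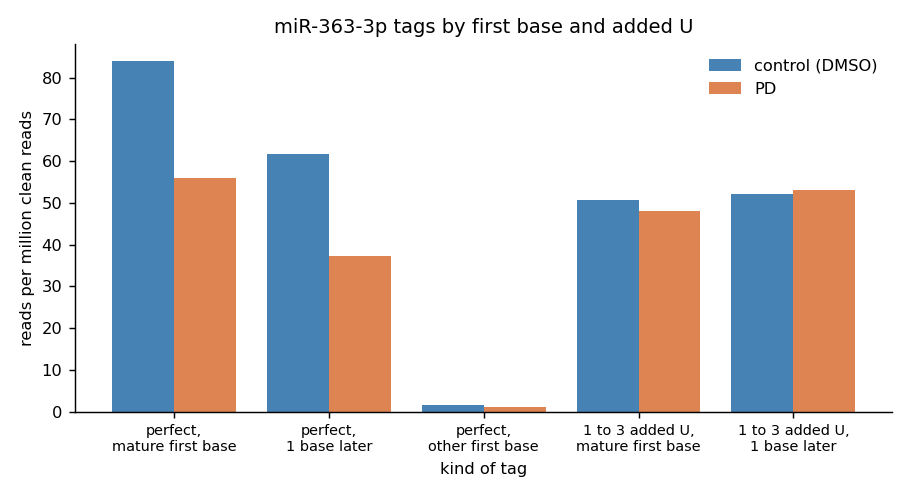
RPM of miR-363-3p tags in the control and PD libraries, split by first base and by the presence of 1 to 3 added U. The perfect tags are lower in PD at both first bases (fold changes 0.667 and 0.602), and the tailed tags differ little (0.949 and 1.02). The perfect tags include those of 18 to 20 nt, and the kinds are not matched for length.

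The loop of Mir32 was seen as a tag of its own, uguugucacggccucaaug, which fills positions 28 to 46 of the hairpin between the mature 5p arm and the 3p arm. It had 44 reads in the control and 108 in PD, a fold change of 2.21 (1.54 to 3.22), and outnumbered miR-32-3p (17 and 8 reads) in both libraries. The 23 nt tag of miR-32-5p overlaps its first base. The 4 hairpins Mir25, Mir92-1, Mir92-2 and Mir92b had 0 tags outside their arms, and Mir363 had 9 such tags with 16 and 24 reads.

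The detected neighbours of the members were less reduced, over all perfect tags, than the seed arms of their own cluster. All arms of Mir17, Mir18, Mir19a, Mir20a, Mir19b-1, Mir106a, Mir18b, Mir20b, Mir19b-2, Mir106b and Mir93 were listed. Of these, 16 arms were detected, 0 were past 1.5-fold in either direction, and 12 were below 1, with a median fold change of 0.881 and a range from 0.711 (miR-17-3p) to 1.19 (miR-106a-3p). The intervals were below 1 for 8 arms and above 1 for 1, miR-19b-3p, at 1.18 (1.08 to 1.29).

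Over all perfect tags, a seed arm had the lowest fold change of the detected arms in each cluster. In miR-106b-25, miR-93-5p had 377.8 RPM in the control and 375.2 RPM in PD, a fold change of 0.993 (0.962 to 1.03). miR-106b-5p had a fold change of 0.929 and miR-106b-3p of 0.902, against 0.714 for miR-25-3p. In miR-17-92 the 7 detected neighbours had a median of 0.938, with miR-17-5p at 0.840 and miR-20a-5p at 0.861, against 0.602 for miR-92a-3p. In miR-106a-363 the 7 detected neighbours had a median of 0.816, with miR-106a-5p at 0.841 and miR-20b-5p at 0.816, against 0.640 for miR-363-3p. Counted with its U-tailed tags, miR-363-3p was at 0.782, still below that median. It was then above miR-18b-5p at 0.719 and miR-20b-3p at 0.726, whose own tailed tags were not counted. miR-19b-3p and miR-92a-3p can come from either of these clusters.

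Tag length moved with this difference. The share of 18 to 20 nt reads in the control had a median of 2.92% over the 16 neighbours, and 1 of them, miR-18b-5p, was above 20%, whereas all 5 seed arms were above 22%. Among reads of 21 nt or more the neighbours had a median fold change of 0.894, beside 0.823 for miR-25-3p, 0.808 for miR-92a-3p and 0.736 for miR-363-3p. In this class miR-17-3p at 0.805 and miR-20b-3p at 0.566 lay below the seed arms of their clusters, although miR-20b-3p had only 36 and 29 reads in all. The part of length in the difference was not tested beyond these values.

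**Figure D5:**
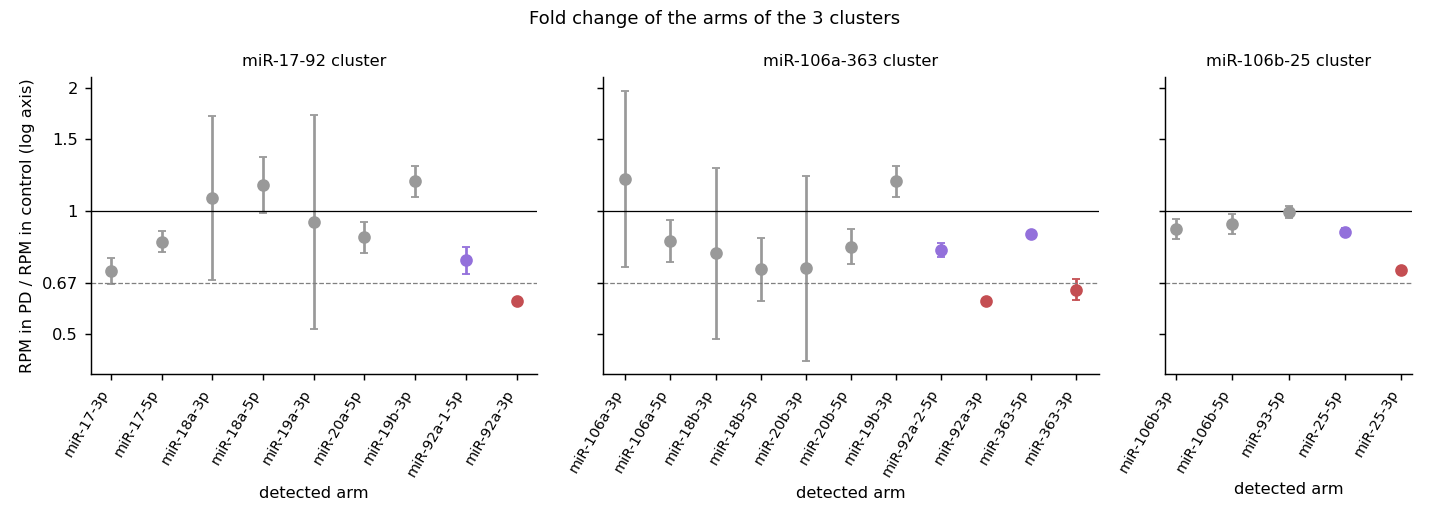
Fold change (PD over control, log axis) with 95% counting intervals of the detected arms of the 3 clusters. Grey marks the neighbours, purple the opposite arms and red the seed arms of the members, and the dashed line marks a 1.5-fold reduction. Over all perfect tags the red points lie lowest in each cluster, at 0.602, 0.640 and 0.714.

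Outside the family and these clusters, 89 miRNAs had at least 100 RPM in the control. By the distance of the log2 fold change from that of the family total, the nearest were miR-485-3p with a fold change of 0.702, miR-181c-5p with 0.699 and miR-134-5p with 0.706. This likeness rests on 2 libraries and says no more than that the values are close.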

How the data were processed

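Small RNA of 18 to 30 nt was sequenced from 1 library of each treatment. The authors deposited, per library, raw counts of reads for each distinct tag with its sequence, and their sum is called clean reads here (the row with the total was left out). Per the study's text, adaptors, poor-quality and contaminating reads and reads under 18 nt had been removed. The trimming tool is not given in the sources used here. The labels name the build mm9, but the deposited tables hold no coordinates, so positions are from GENCODE M21 (GRCm38).

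Tags of 18 nt or more were matched, perfectly and over their whole length, to 1174 hairpins and counted for a mature miRNA when they overlapped it by at least 16 nt. Identical mature miRNAs were merged. Of the 11 member arms, 10 had a mature sequence in RefSeq, and for miR-363-5p the most frequent tag was used after splitting the hairpin with RNAfold (ViennaRNA 2.7.2). Counts were divided by clean reads (RPM). No pseudocount was used. Intervals are exact Clopper-Pearson for fold changes (SciPy 1.17.1, Python 3.11.15), exact for ratios and Wilson for shares, at 95%, and reads without molecular identifiers are not independent molecules. With 1 library per group no count model was fitted, and edgeR 4.0.16 and DESeq2 1.42.0 gave only scaling factors.

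The named miRNAs were every arm of the members, miR-367, every arm of the listed cluster neighbours, and the 3 others of at least 100 RPM with the fold change nearest to the family total. Members, lists and settings were chosen with earlier results of these data known. Counting tags with 1 to 3 added U or A, and tags of 22 nt or more, was added after seeing the data, as were the comparison of length classes, the miR-92a genes and the loop tag.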

Additional observations from a re-analysis of the deposited data

How the results depend on the processing

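No paired analysis was possible because each group is 1 library. The fold change of the seed-arm total (0.701) stayed below 1 throughout. It was 0.804 per reads on miRNA hairpins, 0.849 per reads of 20 to 24 nt, 0.748 with TMM factors, 0.778 with DESeq2 size factors, 0.848 for tags identical to the mature miRNA, 0.832 for tags of 21 nt or more, 0.870 for 22 nt or more and 0.711 with tags bearing 1 to 3 added U or A. The number of detected member arms past 1.5-fold (2) became 0 with a 2-fold threshold, per reads on miRNA hairpins, per reads of 20 to 24 nt, with size factors and for tags of 21 nt or more. It became 1 with TMM factors, for tags starting at the mature first base, with added U or A (miR-92a-3p each time) and for tags of 22 nt or more (miR-32-5p, higher), and 3 for tags identical to the mature miRNA, where miR-32-5p was higher at 1.98. Relative to miR-25-3p, tags identical to the mature miRNA gave 0.700 for miR-92a-3p, 0.766 for miR-363-3p and 2.33 for miR-32-5p. Tags of 21 nt or more gave 0.982 for miR-92a-3p and 1.39 for miR-92b-3p. With added U or A, miR-363-3p crossed 1, to 1.09. Of the 98 detected miRNAs past 1.5-fold, 71.4% were lower. The number was 558 without a filter, 34 at 10 RPM and 26 at 2-fold. The lower share was 39.0% per reads on miRNA hairpins, 28.4% per reads of 20 to 24 nt, 59.8% with TMM and 47.9% with size factors, as the median log2 fold change moved from -0.17 to 0.02, 0.10, -0.08 and -0.02. miR-32-5p was above 1 in 7 of 11 settings. miR-25-5p and miR-363-5p were above 1 in 2, at 1.02 and 1.00 per reads on miRNA hairpins and 1.08 and 1.06 per reads of 20 to 24 nt. With 1 library per group, biological spread cannot be given, and miR-32-3p (17 and 8 reads) is limited by depth.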
